A study of Mus musculus with 24 samples.

Results

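The calcium-binding proteins Calb1, Calb2, Pvalb, Necab1, Necab2, Ncald, Hpcal1 and Vsnl1 were followed in 2 sensory nuclei of the newborn mouse thalamus, the VB (ventrobasal complex, somatosensory) and the dLGN (dorsal lateral geniculate nucleus, visual). The members were every probe set annotated to 1 of these 8 gene symbols and to no other gene. They came to 15 probe sets for 8 of the 18194 genes on the array: 4 for Calb1, 3 for Ncald, 2 each for Necab1 and Vsnl1, and 1 for each of the others. The 24 Affymetrix mouse arrays came from wild-type C57BL/6 mice, either embBE (embryonically bilaterally enucleated, both eyes cauterized in utero) or non-enucleated controls. The nuclei were dissected at P4 and at P0. There were 3 arrays for each combination of nucleus, day and treatment, except that dLGN at P0 had 4 embBE and 2 control arrays. Each sample pooled nuclei of pups of the same litter and condition, cut under a microscope from vibratome sections, and the RNA went through 2 rounds of amplification. The values are log2 signals that the authors had normalized by RMA. A difference of 1 on this scale is a doubling, and where a gene had several probe sets it was read from the one that was brightest on average over all 24.

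All 8 genes encode proteins that bind calcium through the helix-loop-helix motif called the EF-hand. Calbindin (Calb1), calretinin (Calb2) and parvalbumin (Pvalb) are mobile buffers that take up calcium after it enters a neuron, and they are used throughout the brain to tell neuron classes apart. In the rodent thalamus parvalbumin marks the GABAergic cells of the reticular nucleus. Necab1 and Necab2 are neuronal proteins with an N-terminal EF-hand region and a domain related to monooxygenases of antibiotic synthesis at the other end. Neurocalcin delta (Ncald), Hpcal1 and visinin-like protein 1 (Vsnl1) are neuronal calcium sensors, small myristoylated proteins that move to membranes when they bind calcium.

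The array files held no detection calls, so whether a weak signal stood above background could not be measured, and the number of arrays limits the precision. Nothing in the labels says whether arrays of a group came from separate litters, so p-values measure the spread between these samples. Replicate arrays correlated at 0.970 to 0.997 over all probe sets, and no pair of arrays was identical. The arrays differed in the spread of their signals. The SD over all probe sets was 2.22 to 2.42 in VB (median 2.38) and 2.16 to 2.41 in dLGN (median 2.29). For actin, the 3′ probe set read above the 5′ one, a gap that widens with less intact or less fully copied RNA. The gap was 1.95 to 4.29 in VB (median 2.27) and 2.21 to 4.27 in dLGN (median 3.76). In embBE mice it was wider on every dLGN array than on any VB array of the same day. It was 3.33 to 3.94 against 1.98 to 2.05 at P4, and 3.065 to 4.27 against 2.25 to 2.55 at P0. Nucleus and this gap cannot be told apart there. The 2 arrays with the narrowest spread within each nucleus were VB P4 control 36_3 and VB P0 control 35_1, and dLGN P4 control 40_1 and dLGN P0 embBE 39_3. Markers fitted the labelled tissue: the median of 12 relay neuron genes lay at 10.12 to 10.86 on the VB arrays and at 10.38 to 11.17 on the dLGN arrays, while 9 genes of hippocampal and cortical neurons had medians of 5.03 to 6.26. The median of 13 genes of GABAergic neurons was 5.36 to 7.26 on the VB arrays, with the highest on VB P0 control 39_5. On the dLGN arrays it was 6.01 to 6.82. In VB at P0 it was 5.36 to 5.71 (mean 5.50) in embBE mice and 5.43 to 7.26 (mean 6.10) in control mice. The median difference of these genes there, embBE minus control, was -0.72 (all genes: -0.03), with 1 of 13 higher in embBE. The part of these genes in the treatment comparisons was not tested.

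Between the nuclei, Vsnl1 and Necab2 were higher in VB and Necab1 was lower. Of the 8 members, 3 passed an adjusted p of 0.05 in embBE mice at P4 (Vsnl1, Necab2 and Necab1), where 8.44% of all genes did, and 2 in control mice at P4 (Vsnl1 and Necab2), where 3.21% did. At P0 Vsnl1 alone passed, against 7.46% of all genes in embBE mice and 1.56% in control mice. The members were chosen with earlier results of these data known, so these counts do not test the set. The median difference of the 8 members, VB minus dLGN, was 0.44 and 0.46 in embBE and control mice at P4 (all genes: -0.09 and -0.03), and 0.02 and 0.01 at P0 (all genes: -0.06 and 0.03).

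Vsnl1 was the only member called in all 4 comparisons of the nuclei. In embBE mice at P4 the VB arrays read 12.64, 13.04 and 12.81, and the dLGN arrays 10.80, 10.23 and 9.93. In control mice at P4 the VB arrays read 13.22, 12.64 and 12.65, against 11.73, 10.88 and 10.20 in dLGN. Every VB array lay above every dLGN array, as at P4 it did for 23.5% of all genes in embBE and 5.51% in control mice. At P0 the signals were 12.63, 11.93 and 12.14 in embBE VB, against 9.58, 8.23, 10.31 and 10.23 in embBE dLGN. In control mice at P0 they were 11.89, 12.44 and 12.48 in VB, against 9.93 and 9.82 in dLGN. At P0 the groups were apart again, as for 13.1% of all genes in embBE and 12% in control mice, and the lowest of all 12 VB signals was above the highest of all 12 dLGN signals. The lowest dLGN signal, 8.23, came from array 39_3, the array with the narrowest spread of all.

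The difference in Vsnl1 between VB and dLGN was 2.51 ± 0.42 (SE; a 5.71-fold higher signal in VB) in embBE mice at P4, with an adjusted p of 0.000904 from limma. It was 1.90 ± 0.42 (SE; 3.73-fold) in control mice at P4, with an adjusted p of 0.0119. At P0 it was 2.64 ± 0.39 (SE; 6.25-fold, adjusted p = 0.000323) in embBE mice and 2.39 ± 0.47 (SE; 5.25-fold, adjusted p = 0.0087) in control mice. With 1 array left out the difference stayed positive, but in controls its size moved and its call did not always hold. Without dLGN P0 control 35_1 or 39_5 the adjusted p at P0 was 0.0800 or 0.135, with 1 array then left in that group and assumed to vary like the others. Without dLGN P4 control 36_3 or 40_1, or VB P4 control 24_2, the control difference at P4 was 1.87, 1.53 or 1.70. The adjusted p was then 0.0545, 0.0877 or 0.0818. In embBE mice the highest adjusted p with 1 array left out was 0.00963.

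A second Vsnl1 probe set read the same order at a lower level, 7.72 to 9.56 in VB and 5.95 to 7.77 in dLGN. Its differences, VB minus dLGN, were 2.46 and 2.1 in embBE and control mice at P4 (adjusted p = 0.000221 and 0.00139 over all probe sets) and 1.64 and 2.13 in embBE and control mice at P0 (adjusted p = 0.0066 and 0.00696). Both probe sets therefore passed the test in each of the 4 comparisons. With the SD of each array as a covariate, a setting chosen after the data were seen, the Vsnl1 difference of the main probe set was 1.77 and 1.58 in embBE and control mice at P4, and 2.08 and 2.53 at P0, each with an adjusted p of 0.00126 or below. The relay neuron and GABAergic medians and the actin gap given above also differed between the nuclei, and their part in the result was not tested. In embBE mice the actin gap cannot be told apart from nucleus. In dissected tissue, fewer cells of a type and less RNA per cell cannot be told apart.

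Necab2 was higher in VB at P4. In embBE mice at P4 the VB arrays read 8.65, 8.63 and 8.69, and the dLGN arrays 7.79, 8.19 and 7.97. In control mice at P4 the VB arrays read 8.60, 8.80 and 8.72, against 8.18, 7.98 and 8.23 in dLGN. The VB arrays lay above the dLGN arrays in both, an order that 23.5% of all genes had in embBE and 5.51% in control mice at P4. The difference was 0.67 ± 0.12 (SE; 1.59-fold, adjusted p = 0.00176) in embBE mice and 0.58 ± 0.12 (SE; 1.49-fold, adjusted p = 0.00809) in control mice. The call in controls was lost without dLGN P4 control 36_3 (adjusted p = 0.0654) and under cyclic loess normalization (0.53, adjusted p = 0.0504). At P0 the difference was 0.01 ± 0.11 in embBE mice and 0.24 ± 0.14 in control mice (SE; adjusted p = 0.942 and 0.673). The P0 signals were 8.46, 8.34 and 8.56 in embBE VB and 8.24, 8.42, 8.41 and 8.70 in embBE dLGN, which overlap. In control mice at P0 they were 8.63, 8.51 and 8.67 in VB and 8.30 and 8.42 in dLGN.

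RefSeq gives the windows around the start sites of these 2 genes, both of which were higher in VB at P4, and they are shown here with the only match found to the motifs searched. Each window runs from 250 bases before the start to 50 after it, on build GRCm38.p6, 5′ to 3′ on the strand of the gene. The capitals mark a GC box (GGGCGG, or CCGCCC where it lies on the other strand).
Vsnl1, chr12:11436529-11436828, minus strand: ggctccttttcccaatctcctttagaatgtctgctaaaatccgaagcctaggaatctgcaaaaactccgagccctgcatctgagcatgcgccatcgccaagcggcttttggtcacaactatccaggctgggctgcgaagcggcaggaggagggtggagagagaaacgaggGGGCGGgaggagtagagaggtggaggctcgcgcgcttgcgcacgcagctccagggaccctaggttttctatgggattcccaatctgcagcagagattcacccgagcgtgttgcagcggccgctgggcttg
Necab2, chr8:119446469-119446768, plus strand: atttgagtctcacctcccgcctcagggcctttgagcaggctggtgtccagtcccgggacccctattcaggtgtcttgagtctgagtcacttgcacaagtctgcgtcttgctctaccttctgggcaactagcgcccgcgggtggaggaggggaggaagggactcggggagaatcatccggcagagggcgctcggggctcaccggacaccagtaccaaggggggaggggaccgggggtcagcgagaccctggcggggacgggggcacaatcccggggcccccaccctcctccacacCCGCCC
In Vsnl1 the match began 80 bases before the start site, and in Necab2 44 bases after it. Neither window held a cAMP response half-site (TGACG), a nuclear receptor half-site (AGGTCA) or a TATA box (TATAAA) on either strand. Of the 32851 RefSeq windows of this length, 35.7% held a GC box, 20.8% TGACG, 16.3% AGGTCA and 13.6% TATAAA. The window of Hpcal1 held 3 GC boxes and none of the other motifs. The windows of Pvalb's 2 start sites and of a second Vsnl1 start held none of the 4. These are matches of letters, and nothing in these data reads binding at them.

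Necab1 ran the other way and was lower in VB. In embBE mice at P4 the VB arrays read 7.24, 6.54 and 7.22, and the dLGN arrays 8.98, 8.88 and 8.67. In control mice at P4 the VB arrays read 7.37, 6.55 and 7.48, against 9.33, 9.18 and 8.27 in dLGN. All VB arrays lay below all dLGN arrays at P4 in both treatments, as for 32.3% of all genes in embBE and 7.15% in control mice. The difference was -1.84 ± 0.51 (SE; 3.59-fold lower in VB) in embBE mice, with an adjusted p of 0.0308, and -1.79 ± 0.51 (SE; 3.47-fold lower) in control mice, with an adjusted p of 0.0591. Leaving out any 1 of the 6 embBE arrays at P4 took the adjusted p in embBE mice above the threshold, to between 0.0596 and 0.117, while the difference stayed between -1.96 and -1.61. Centring each array on its median did so too (adjusted p = 0.0584). In control mice Necab1 passed without dLGN P4 control 40_1 (-2.12, adjusted p = 0.0494), with the mean of its probe sets (-2.05, adjusted p = 0.0492) and under cyclic loess (-1.82, adjusted p = 0.0398). The second Necab1 probe set had differences of -2.10 and -2.31 in embBE and control mice at P4, with adjusted p-values of 0.0578 and 0.0854.

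At P0 Necab1 varied more within groups. The signals were 8.13, 7.94 and 6.49 in embBE VB, against 9.04, 7.70, 9.47 and 8.93 in embBE dLGN. They were 7.19, 8.26 and 6.86 in control VB, against 9.51 and 7.73 in control dLGN. The groups overlapped in both treatments, and the differences of -1.26 ± 0.47 (embBE) and -1.18 ± 0.57 (control) had adjusted p-values of 0.0925 and 0.551. The low dLGN arrays at P0 were 39_3 (embBE) and 39_5 (control). Without the 2 arrays of narrowest spread in each nucleus, the P0 difference in embBE mice was -1.62 (adjusted p = 0.0256).

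**Figure D1:**
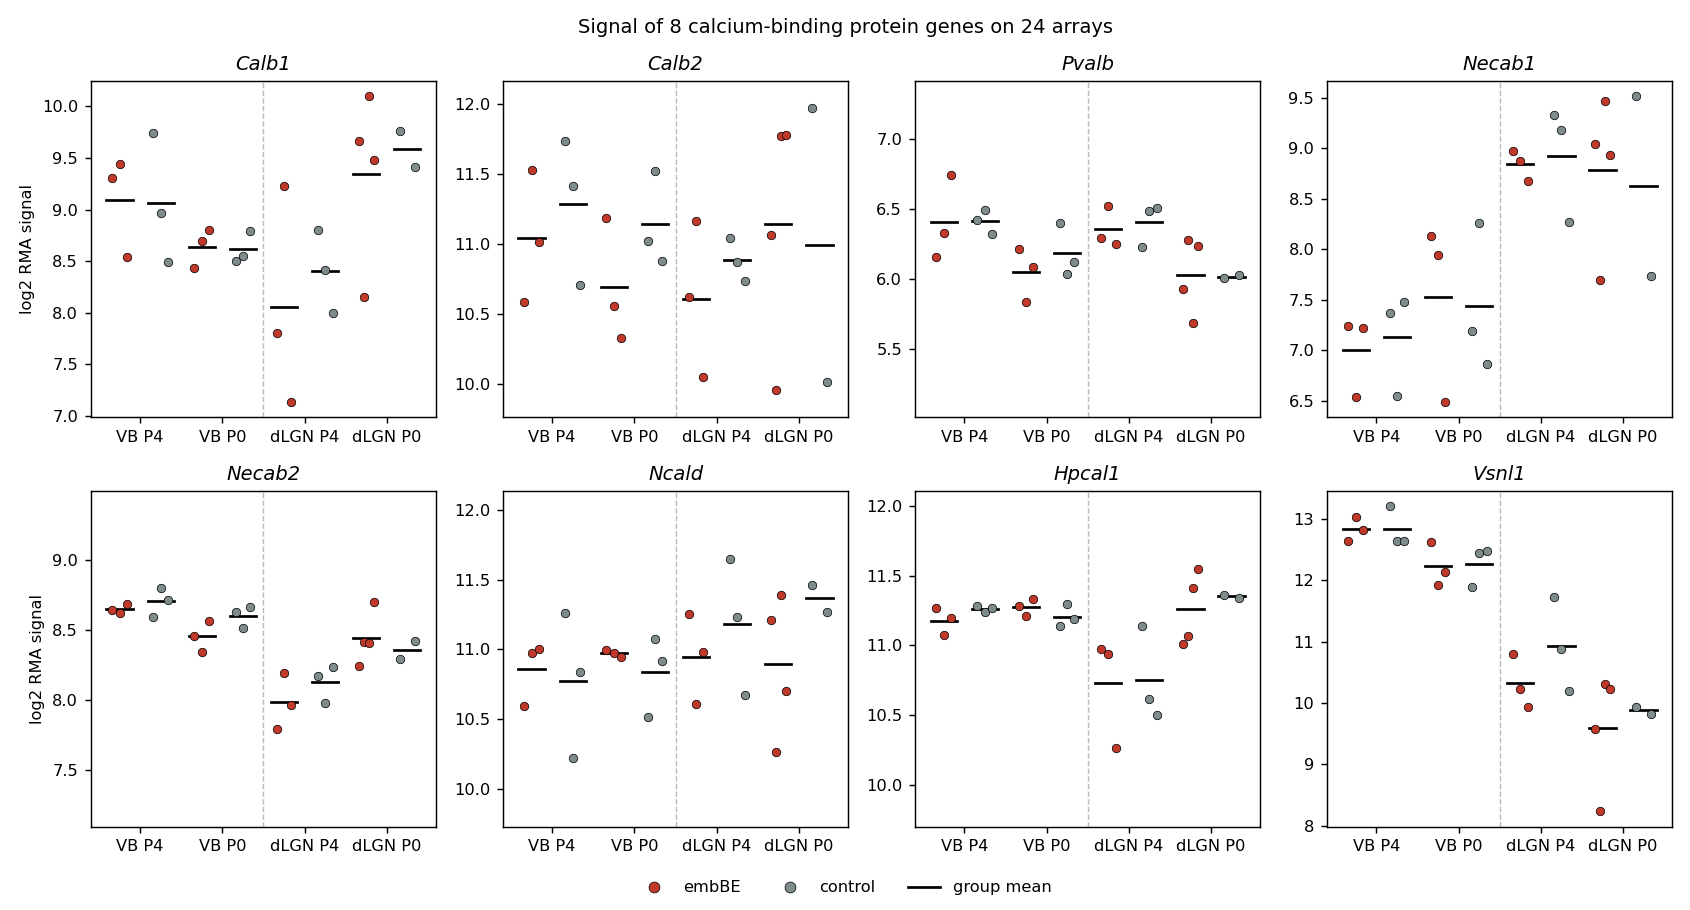
Log2 RMA signal of the main probe set of each gene (y axis) on the 24 arrays, by nucleus and day (x axis), with embBE arrays in red left of control arrays in grey and a bar at each group mean. Vsnl1 is at 11.89 or above on all VB arrays and at 11.73 or below on all dLGN arrays, and Necab1 at P4 is at 7.48 or below in VB and at 8.27 or above in dLGN.

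The remaining members, Hpcal1, Calb1, Ncald, Calb2 and Pvalb, did not pass the adjusted threshold between the nuclei in any of the 4 comparisons. Hpcal1 read 11.26, 11.07 and 11.20 in embBE VB at P4, against 10.98, 10.94 and 10.27 in embBE dLGN. In control mice at P4 it read 11.28, 11.24 and 11.27 in VB, against 11.14, 10.62 and 10.50 in dLGN. VB arrays lay above dLGN arrays in both treatments, again the order of 23.5% of all genes in embBE and 5.51% in control mice, and the differences of 0.45 ± 0.18 and 0.51 ± 0.18 (SE) did not pass (adjusted p = 0.0965 and 0.155). Without dLGN P4 control 24_2, the dLGN control array with the highest Hpcal1 signal, the control difference was 0.71 (adjusted p = 0.0255). At P0 the differences were 0.02 in embBE and -0.14 in control mice.

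Calb1 had differences of opposite sign at the 2 ages. At P4 its difference, VB minus dLGN, was 1.04 ± 0.46 in embBE and 0.66 ± 0.46 in control mice (SE; adjusted p = 0.124 and 0.577). At P0 it was -0.71 ± 0.43 and -0.97 ± 0.52 (SE; adjusted p = 0.275 and 0.637). Without dLGN P4 embBE 36_2 the embBE difference at P4 was 1.63 and passed (adjusted p = 0.0435), and without dLGN P4 embBE 40_3 it was 0.58. One weaker Calb1 probe set, 1456934_at, passed in embBE mice at P0 (-0.92, adjusted p = 0.0336). Ncald had differences of -0.09 and -0.41 in embBE and control mice at P4, and of 0.08 and -0.53 at P0, with adjusted p-values of 0.577 and above. Calb2 differed by -0.45 to 0.44 and Pvalb by 0.01 to 0.17, again with adjusted p-values of 0.479 and above.

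**Figure D2:**
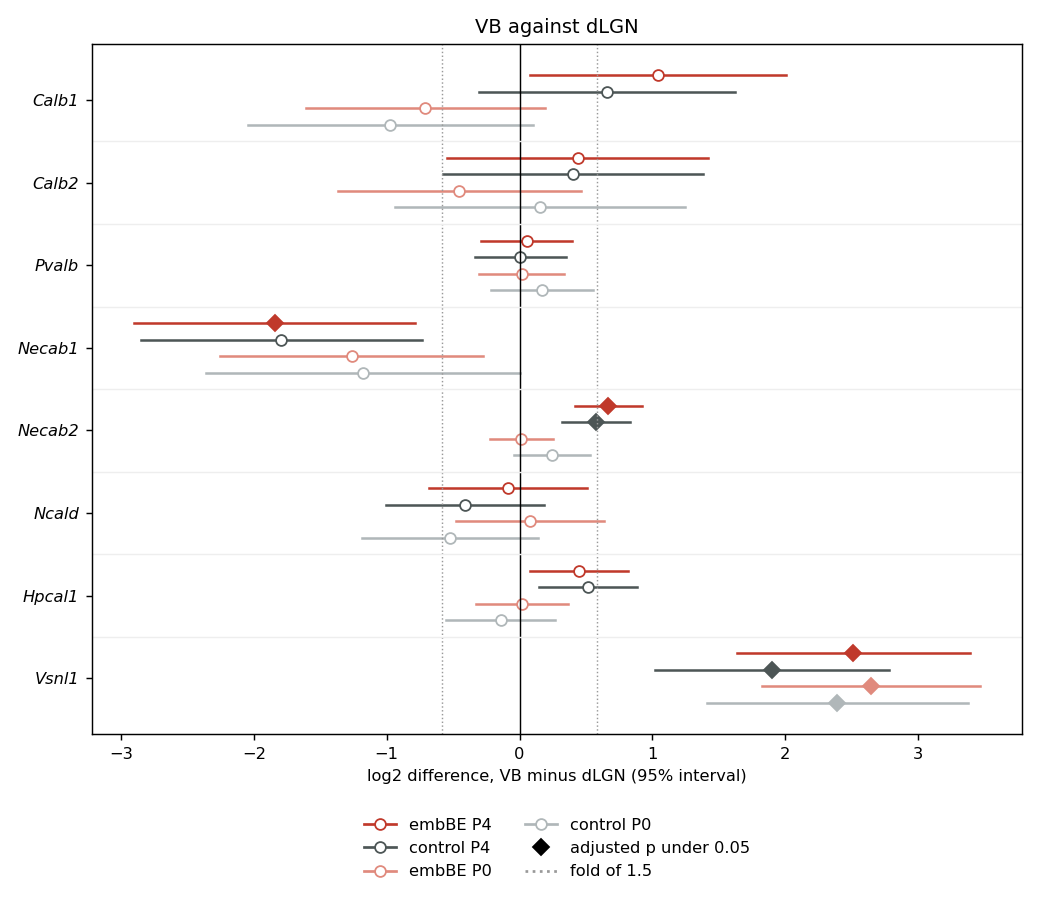
Log2 difference of each gene, VB minus dLGN (x axis), in embBE and control mice at P4 and P0, with 95% intervals from the fit of 24 arrays. Filled diamonds mark an adjusted p under 0.05: all 4 for Vsnl1, both at P4 for Necab2, and embBE at P4 for Necab1.

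The main Ncald probe set read low on arrays of narrow spread in both nuclei. Its highest dLGN signals, 11.64 and 11.46, came from the arrays 24_2 (P4 control) and 35_1 (P0 control), with SDs of 2.41 and 2.35. Its lowest, 10.27, came from array 39_3 (P0 embBE), with an SD of 2.16. In VB the lowest signals, 10.23 and 10.52, were on the narrow control arrays 36_3 (P4) and 35_1 (P0), while the other 10 VB arrays read 10.60 to 11.26. With the SD of each array as a covariate, Ncald was lower in VB in embBE and in control mice at P4 (-0.73 and -0.68, adjusted p = 0.000374 and 0.000189) and at P0 (-0.41 in both, adjusted p = 0.0167 and 0.0377). Without the covariate none of the 4 passed, and the embBE difference at P0 had the other sign (0.08). The 2 weaker Ncald probe sets did not pass the adjusted threshold in any of the 4 comparisons. The brighter of them, 1417569_at, read 9.38 on dLGN 39_3 (group 9.36 to 9.56) and 9.50 on VB 36_3 (group 9.44 to 9.55). It read 9.27 on VB 35_1 (group 9.25 to 9.38) and 9.47 on dLGN 40_1 (group 9.47 to 9.98). Only on dLGN 40_1 was it the lowest of its group. The covariate setting covered the main probe set alone. Over all groups the SDs of VB and dLGN arrays overlapped, with a higher median in VB (2.38 against 2.29). In embBE mice at P4 the SDs did not overlap, with 2.38 to 2.42 in VB and 2.24 to 2.33 in dLGN. The covariate therefore cannot fully separate spread from nucleus there.

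**Figure D3:**
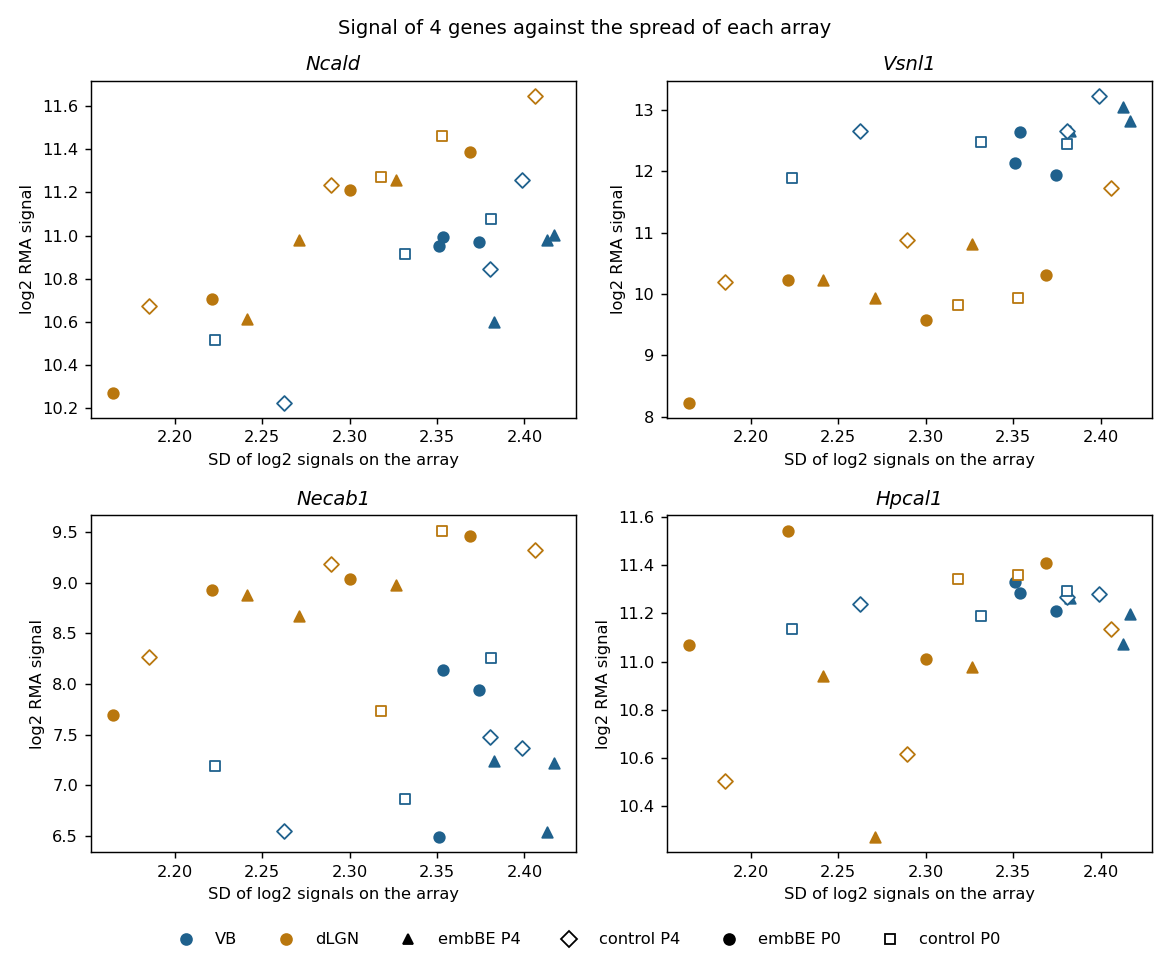
Log2 signal of 4 genes (y axis) against the SD of all log2 signals on the same array (x axis), with VB arrays in blue, dLGN arrays in brown, embBE filled and control open. Each gene is read from its main probe set. The lowest Ncald signal of each nucleus is on a narrow array. Vsnl1 is higher on every VB array than on any dLGN array, but the SDs of the nuclei overlap only in part. The lowest SD is 2.22 in VB and 2.16 in dLGN.

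Between the ages no member passed the adjusted threshold in either nucleus or treatment. The background of called genes was 3.42% in embBE VB, 3.78% in control VB, 1.02% in embBE dLGN and 0.561% in control dLGN. The fold rule took the thresholds of the study, a fold of at least 1.5 and a p under 0.05, here unadjusted and from limma. It called 1 member each in embBE VB (Vsnl1), embBE dLGN (Calb1) and control dLGN (Hpcal1) and 0 in control VB. Of all genes it called 4.54%, 3.48%, 3.69% and 5.1% in these 4 comparisons.

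Vsnl1 had a positive P4 minus P0 difference in all 4 comparisons. It was 0.60 ± 0.22 (SE; 1.52-fold) in embBE VB and 0.57 ± 0.22 (SE; 1.48-fold) in control VB, with adjusted p-values of 0.179 and 0.178. In both treatments every P4 array lay above every P0 array, as for 17.6% of all genes in embBE VB and 7.05% in control VB. With only the 6 embBE VB arrays in the fit the adjusted p was 0.0416. In dLGN the differences were 0.73 ± 0.47 (embBE) and 1.06 ± 0.56 (control), with adjusted p-values of 0.639 and 0.612. The 8.23 of array 39_3 is part of the embBE dLGN mean at P0, and without it the dLGN difference was 0.28.

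Calb1 had P4 minus P0 differences of opposite sign in the 2 nuclei. In dLGN its signals at P4 were 7.80, 9.23 and 7.14 (embBE) and 8.80, 8.41 and 8.0 (control). At P0 they were 9.67, 8.15, 10.10 and 9.48 (embBE) and 9.76 and 9.41 (control). The control groups did not overlap, as for 12% of all genes, and the embBE groups overlapped through 9.23 (36_2, P4) and 8.15 (39_3, P0). The difference was -1.29 ± 0.49 (SE; 2.45-fold lower at P4) in embBE dLGN and -1.18 ± 0.59 (SE; 2.27-fold lower) in control dLGN, with adjusted p-values of 0.299 and 0.569. With 1 of the 7 embBE arrays left out at a time, the value lay between -1.88 and -0.83.

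In VB the Calb1 signals at P4 were 9.31, 9.44 and 8.54 (embBE) and 9.74, 8.97 and 8.49 (control), against 8.43, 8.69 and 8.80 (embBE) and 8.50, 8.55 and 8.79 (control) at P0. The P4 arrays spread over a wider range than the P0 arrays, which all lay between 8.43 and 8.80. Both VB differences were 0.45 ± 0.28 (SE; 1.37-fold), with adjusted p-values of 0.455 in embBE and 0.425 in control VB.

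Tested directly, the P4 minus P0 change of Calb1 in VB minus that in dLGN was 1.75 ± 0.63 in embBE and 1.63 ± 0.69 in control mice (SE). Both passed the fold rule, where 1.79% and 3.08% of all genes did, and neither passed after adjustment (adjusted p = 0.859 and 0.722). In embBE mice the value passed at an unadjusted p of 0.0118, and without dLGN P4 embBE 40_3 it was 1.28 with a p of 0.0508. The control value was no longer called without dLGN P4 control 40_1, dLGN P0 control 35_1 or VB P4 control 24_2 (1.42, 1.46 and 1.29). The 3 weaker Calb1 probe sets lay at 3.44 to 5.41. For the same contrast in embBE and control mice, 1448738_at gave 1.22 and 1.01 and 1456934_at gave 1.06 and 0.85, all 4 called by the fold rule, while 1458836_at gave -0.17 and 0.04.

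Hpcal1 and Necab2 had negative P4 minus P0 differences in dLGN. That of Hpcal1 was -0.53 ± 0.21 in embBE dLGN and -0.60 ± 0.25 in control dLGN (SE; adjusted p = 0.330 and 0.460). Its dLGN signals at P0 were 11.01, 11.07, 11.41 and 11.54 (embBE) and 11.36 and 11.34 (control), all above the P4 dLGN signals of the same treatment, an order that 6.04% of all genes had in embBE and 12% in control dLGN. In VB it differed by -0.10 and 0.06. The change in VB minus that in dLGN was 0.66 ± 0.27 (SE; called by the fold rule, adjusted p = 0.706) in control mice and 0.43 ± 0.24 in embBE mice. The control call rested on single arrays: without dLGN P4 control 36_3 or 40_1, or dLGN P0 control 35_1, the unadjusted p was 0.0520, 0.0639 or 0.0534.

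The P4 minus P0 difference of Necab2 was -0.46 ± 0.14 in embBE dLGN and -0.23 ± 0.17 in control dLGN, and it was 0.20 ± 0.10 in embBE VB and 0.10 ± 0.10 in control VB (SE; adjusted p = 0.167, 0.755, 0.346 and 0.639). P4 arrays lay below P0 arrays in embBE and control dLGN, as for 6.04% and 12% of all genes, and above them in embBE VB, as for 17.6%. The change in VB minus that in dLGN was 0.65 ± 0.17 (SE; adjusted p = 0.357) in embBE mice, which met the fold rule, and 0.33 ± 0.18 in control mice, which did not. Without dLGN P0 embBE 35_3 or dLGN P4 embBE 24_4 the embBE value was 0.57 or 0.56 and no longer reached the fold.

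Pvalb had a positive P4 minus P0 difference in all 4 comparisons, of 0.22 to 0.39 on the log2 scale. The P4 signals were 6.16, 6.33 and 6.74 in embBE VB, 6.42, 6.49 and 6.32 in control VB, 6.30, 6.52 and 6.25 in embBE dLGN and 6.23, 6.48 and 6.51 in control dLGN. The P0 signals were 6.21, 5.84 and 6.09 in embBE VB, 6.40, 6.03 and 6.12 in control VB, 5.93, 6.27, 5.68 and 6.24 in embBE dLGN and 6.00 and 6.03 in control dLGN. P4 arrays lay above P0 arrays in control dLGN, as for 12.3% of all genes, and overlapped in the other 3. Adjusted p-values lay between 0.267 and 0.537.

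Necab1, Ncald and Calb2 had age differences between -0.54 and 0.35 with adjusted p-values of 0.598 and above. Calb2 ranged from 9.96 to 11.97 within dLGN at P0 alone, with 11.07, 9.96, 11.77 and 11.78 in embBE and 11.97 and 10.01 in control mice.

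**Figure D4:**
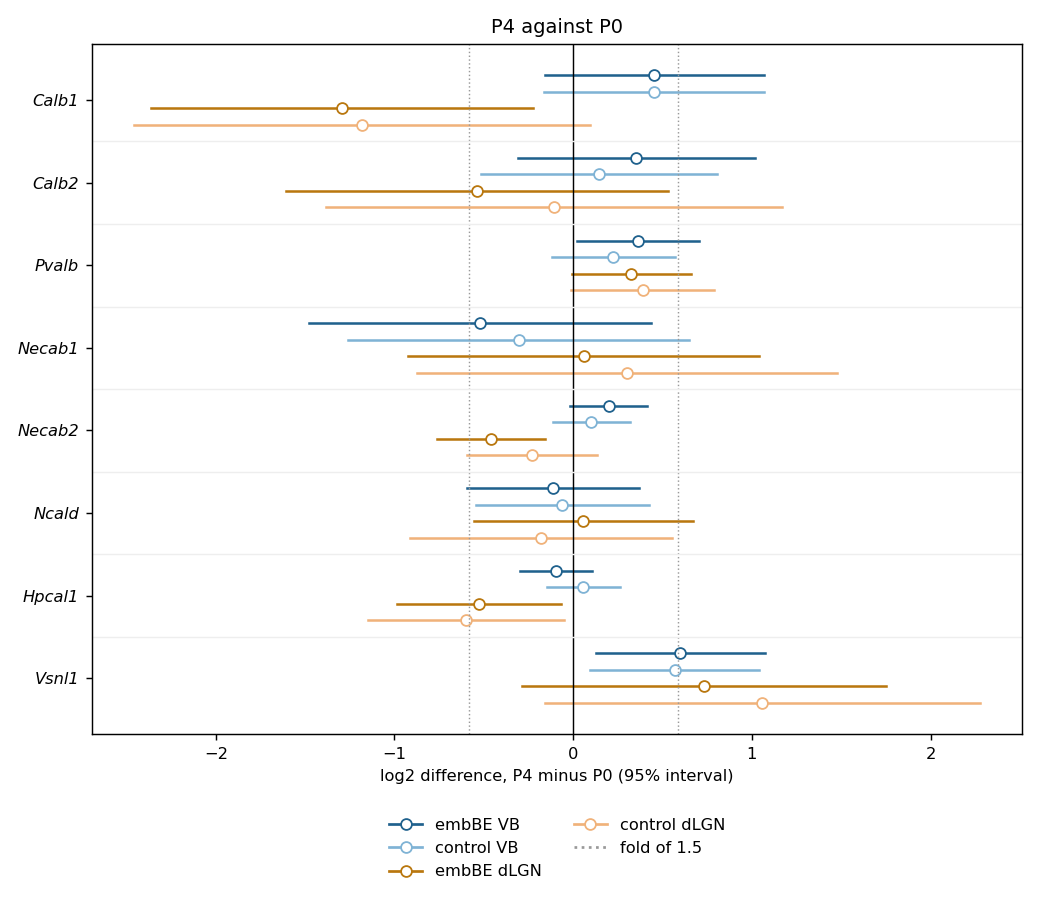
Log2 difference of each gene, P4 minus P0 (x axis), in embBE and control VB and dLGN, with 95% intervals from the fits of 12 arrays per nucleus and dotted lines at a fold of 1.5. Calb1 lies at 0.45 in VB and at -1.29 and -1.18 in dLGN, and no gene passed the adjusted threshold.

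Embryonic removal of the eyes was the treatment of the study. No member was called between embBE and control mice in either nucleus at either age, by the fold rule or after adjustment, and none had an unadjusted p under 0.05. The fold rule called 0.159% of all genes in VB at P4, 0.726% in VB at P0, 0.198% in dLGN at P4 and 0.445% in dLGN at P0, and the adjusted threshold of limma called 0 genes (724, 1219, 236 and 433 had an unadjusted p under 0.05). A share of 0 of 8 members cannot be told from so low a background. The methods' t-test also called 0 members. The signals of embBE and control arrays overlapped for all 8 genes in all 4 comparisons. Among all genes, the embBE arrays lay wholly above the control arrays for 4.33% in VB at P4, 4.47% in VB at P0, 2.47% in dLGN at P4 and 5.9% in dLGN at P0, and wholly below for 7.83%, 7.55%, 2.38% and 4.08%.

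The intervals of the differences show how large a change these arrays could have missed. In VB they were narrow for Hpcal1, from -0.29 to 0.12 at P4 and from -0.14 to 0.27 at P0, and for Necab2, from -0.27 to 0.16 and from -0.36 to 0.07. A 1.5-fold change lies outside each of these. For Vsnl1 in VB the intervals were -0.48 to 0.47 at P4 and -0.51 to 0.44 at P0. Necab1 in VB had intervals of -1.09 to 0.82 and -0.87 to 1.04, which reach well past that fold in both directions.

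Calb2 had the largest VB difference, -0.45 ± 0.30 (SE; adjusted p = 0.681) at P0, with 11.19, 10.56 and 10.33 in embBE arrays against 11.02, 11.52 and 10.88 in control arrays. The array 11.19 (35_3) is the one embBE array inside the control range. Without it the difference was -0.70, which met the fold rule with an unadjusted p of 0.0491 (adjusted p = 0.847). At P4 the signals were 10.59, 11.53 and 11.02 in embBE VB against 11.73, 11.41 and 10.71 in control VB, a difference of -0.24 ± 0.30.

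In dLGN the largest embBE difference was that of Vsnl1 at P4, -0.62 ± 0.50 (SE), a 1.53-fold lower mean with an unadjusted p of 0.242. The control arrays 24_2 and 36_3, with 11.73 and 10.88, lay above all 3 embBE arrays, while 40_1 with 10.20 lay among them. Array 40_1 is the narrow array of that group. Without the 2 narrowest arrays of each nucleus the difference was -0.98 with an unadjusted p of 0.00914 (adjusted p = 0.729), a setting chosen after the data were seen. All 8 members had a lower mean in embBE than in control dLGN at P4, with differences of -0.62 to -0.02, and the median over members was -0.19 against 0.01 over all genes. The embBE dLGN arrays at P4 had SDs of 2.24 to 2.33, and the control arrays 2.19 to 2.41. The widest control array, 24_2, had the highest control signal for Calb1, Calb2, Necab1, Ncald, Hpcal1 and Vsnl1, but not for Necab2 or Pvalb. All 8 differences come from the same arrays, so they are not 8 separate results.

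**Figure D5:**
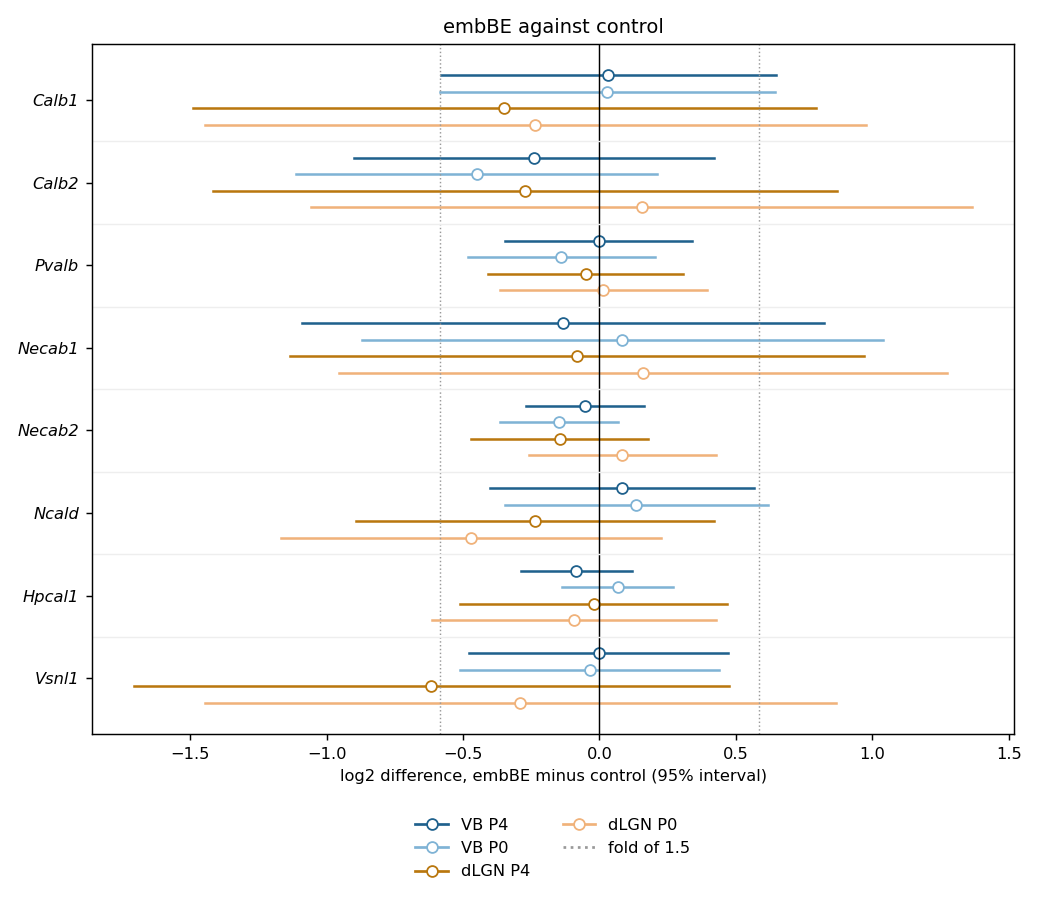
Log2 difference of each gene, embBE minus control (x axis), in VB and dLGN at P4 and P0, with 95% intervals and dotted lines at a fold of 1.5. All 32 intervals include 0, and those of VB are narrower than those of dLGN for all 8 genes.

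No member met the fold rule for a difference of the embBE effect between ages or nuclei, as 0.346% (VB) and 0.418% (dLGN) of all genes did between P4 and P0, and 0.478% (P4) and 2.54% (P0) between VB and dLGN. The values ranged from -0.61 (Calb2, VB minus dLGN at P0) to 0.61 (Vsnl1, VB minus dLGN at P4), with unadjusted p-values of 0.162 and above. Without dLGN P0 control 35_1, Calb2 gave -1.59 with an unadjusted p of 0.0321 (adjusted p = 0.862), with 10.01 then the only control value.

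Other calcium-binding genes were read through 6 lists with 59 genes, of which 52 had a probe set of their own: neuronal calcium sensors, calmodulin and its relatives, other cytosolic EF-hand proteins, penta-EF-hand proteins, S100 proteins and proteins of the endoplasmic reticulum. Between embBE and control mice 2 of the 52 were called by the fold rule, both in VB at P0: Cetn3, a centrin of the centrosome, by 0.67 and Efhd2 by -0.63, each with an adjusted p of 0.679. In the other 3 comparisons 0 were called.

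Most of the S100 genes tested, a family with several glial members, rose with age in VB. At the adjusted threshold 6 of 9 tested S100 genes were higher at P4 than at P0 in embBE VB and 6 in control VB, 5 in embBE dLGN and 1 in control dLGN, and 0 were lower in any. Among all genes 2.69%, 2.32%, 0.632% and 0.253% were higher at P4 in these 4 comparisons. The lists, too, were chosen with earlier results of these data known. S100b, an astrocyte protein, rose by 3.33 ± 0.23 in embBE VB and by 2.91 ± 0.23 in control VB, and by 2.55 ± 0.35 in embBE dLGN (SE; adjusted p of 0.0057 or below). S100a6, S100a16, S100a1 and S100a13 rose by 1.16 to 1.66 in embBE and control VB. The median change of the S100 list was 1.17 and 1.16 in embBE and control VB and 0.73 and 0.74 in embBE and control dLGN, against -0.04, -0.03, 0.01 and 0.04 over all genes. The median of 10 astrocyte and radial glia genes was 10.39 to 11.08 on P4 arrays and 9.89 to 10.02 on P0 arrays of VB, and 10.12 to 11.04 on P4 arrays and 9.54 to 10.25 on P0 arrays of dLGN. Its part in the S100 changes was not tested.

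Outside the S100 family few genes of the lists changed with age. Efhd1, a mitochondrial EF-hand protein, rose by 0.98 in embBE VB, 1.06 in control VB and 1.22 in control dLGN, and the penta-EF-hand protein gene Gca (grancalcin) by 0.60 in embBE and 0.62 in control VB. Hippocalcin (Hpca), a neuronal calcium sensor related to Hpcal1 and Vsnl1, rose by 1.22 ± 0.22 (SE; adjusted p = 0.0115) in embBE VB and was the only one of 10 sensors called in any of the 4 age comparisons. No calmodulin relative or endoplasmic reticulum protein was called for age.

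Between VB and dLGN, S100b was higher in VB at P4, by 1.55 ± 0.34 in embBE and 1.45 ± 0.34 in control mice (SE; adjusted p = 0.0078 and 0.0163), as were S100a13 (0.69 and 0.82) and Gca (0.90 and 0.80). In embBE mice at P4 Kcnip1, a sensor that binds potassium channels, differed by -0.43 and Calml4 by -0.56, both lower in VB. At P0 S100a10 was higher in VB by 0.42 in embBE and 0.56 in control mice, and in embBE mice Necab3, the third gene of the Necab family, was higher by 0.30 and Sdf4, which encodes an EF-hand protein of the Golgi, differed by -0.64. Of the 52 genes, 5 were called in embBE mice at P4, 3 in control mice at P4, 3 in embBE mice at P0 and 1 in control mice at P0, beside 8.44%, 3.21%, 7.46% and 1.56% of all genes.

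Over the 24 arrays, the genes with the pattern most like each member were ranked by Pearson r among 12139 genes with a mean signal of at least 6. These r describe arrays that share nucleus, age and spread. Vsnl1 ran closest to Nwd2 (r = 0.952), Spock1 (0.939) and Elmo1 (0.938), Necab1 to Zic4 (0.891), Pde4b (0.857) and Emilin2 (0.850), and Necab2 to Slc44a2 (0.891), Ap1m2 (0.859) and Btbd11 (0.836). Calb1 was most like Dcc (0.807), the netrin receptor gene, Lrrn3 (0.783) and Htr2c (0.773). Ncald was most like Cd83 (0.888), Tbc1d20 (0.864) and Wdr17 (0.860), Hpcal1 like Tbp (0.842), Sphkap (0.816) and Cnrip1 (0.811), Pvalb like Nfia (0.831), Rhoc (0.831) and Impa1 (0.809), and Calb2 like Plxnc1 (0.755), Nek7 (0.709) and Napb (0.701). Over the 8 group means alone, the r of Nek7 and Napb with Calb2 was 0.195 and 0.146, so that their likeness over arrays lies within groups, whereas that of Nwd2 with Vsnl1 was 0.963.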

How the data were processed

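RNA from VB and dLGN was hybridized to Affymetrix mouse genome arrays. The authors deposited log2 values for 45101 probe sets, which they had made with RMA, whose version is not given in the sources used here, and the values were used as they stood. Symbols came from the platform annotation, updated through Entrez numbers to RefSeq (GRCm38.p6). Probe sets with 1 symbol were kept (34958), those with several (932) or none listed (9211) left out, and the probe set with the highest mean stood for each of 18194 genes. The members and lists were chosen with earlier results of these data known.

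Groups were compared in R 4.3.3 by linear models in limma 3.58.1 with moderated variances, and p-values were adjusted over all genes (Benjamini-Hochberg). Treatment and age were fitted over the 12 arrays of a nucleus. The nuclei were compared over 24 arrays with the pair of numbers in each label as a random block (consensus correlation -0.02). For treatment, and for differences between differences, a gene was called at a fold of at least 1.5 and an unadjusted limma p under 0.05. The study gives a fold of 1.5 and a p under 0.05 and names no adjustment. Otherwise a gene was called at an adjusted p under 0.05. All 8 members were named, the genes of the lists that were called with the largest change (at most 4 a list), and the 3 genes most like each member. The procedure was also run on simulated data with independent noise for each gene. These held no differences in spread between arrays, so that run does not cover such differences. Alternatives were the methods' t-test, other probe sets of a gene or their mean, each probe set by itself, the dimmest genes left out (12130 kept), cyclic loess, median centring, eBayes with trend and robust estimation, other arrays in the fit, label numbers as blocks, and each array left out. Drawing used matplotlib 3.10.9 in Python 3.11.15.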

Additional observations from a re-analysis of the deposited data

Results flagged for a closer look

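In groups of 4 arrays, only dLGN at P0 in embBE mice, a lowest or highest array far from the other 3 was found for 2 weaker or further probe sets, both on array 39_4, which has the widest spread of that group. The Calb1 probe set 1458836_at read 3.95 there, the lowest of the group, and the Ncald probe set 1417569_at read 9.56, the highest. Chance marks about 1 in 20 groups in this way, and 15 probe sets were looked at. The main probe sets of both genes were not marked.

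The change from P0 to P4 differed between VB and dLGN, by a contrast fitted for the difference itself, for Calb1 in embBE mice (1.75) and in control mice (1.63), for Hpcal1 in control mice (0.66) and for Necab2 in embBE mice (0.65). All 4 values are VB minus dLGN on the log2 scale. Each met a fold of 1.5 with an unadjusted p under 0.05, and none passed after adjustment over 18194 genes.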

How the results depend on the processing

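Of 188 counts of called members under other settings, 171 stayed within 1.5 times the main count, as did 131 of 144 counts with 1 array left out. Cyclic loess gave 1 member in place of 2 for the age change in VB minus that in dLGN in controls, and between the nuclei in control mice at P4 it exchanged Necab2 for Necab1 at a count of 2. With all 24 arrays in the fit 1 member (Necab2) was called for age in embBE dLGN, and with only the 2 groups compared 1 (Vsnl1) in embBE VB, each in place of 0. Without the 2 arrays of narrowest spread in each nucleus, 1 member in place of 0 (Vsnl1) was called in dLGN at P4 between embBE and control, in embBE VB for age, for the embBE effect at P4 minus that at P0 in dLGN and for the embBE effect in VB minus that in dLGN at P4; 2 in place of 1 were called between the nuclei in embBE mice at P0, and 1 in place of 2 for the age change in VB minus that in dLGN in controls. With the SD of each array as a covariate 3 members (Calb1, Pvalb and Necab2) were called for age in embBE dLGN and 1 (Vsnl1) in control dLGN, each in place of 0, and between the nuclei 4 in place of 2 in control mice at P4, 3 in place of 1 in embBE mice at P0 and 2 in place of 1 in control mice at P0. Ncald turned to -0.41 in embBE mice at P0 (main value 0.08). Both of these settings were chosen after the data were seen. On the Calb1 probe set 1458836_at the age change in VB minus that in dLGN in embBE mice was -0.17 in place of 1.75, while the other 2 weaker probe sets gave 1.22 and 1.06. The cause was not tested.

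With 1 array left out, the counts ranged from 0 to 1 between the nuclei in control mice at P0, from 0 to 3 in control mice at P4 and from 2 to 3 in embBE mice at P4. They ranged from 0 to 2 (controls) and 1 to 3 (embBE) for the age change in VB minus that in dLGN, from 0 to 1 for embBE against control in VB at P0, and from 0 to 1 for the embBE effect in VB minus that in dLGN at P0. In all other comparisons they stayed at the main count.

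Each array is labelled with 2 joined numbers, and 11 such pairs were shared by a VB and a dLGN array. The deviations of same-numbered arrays from their group means correlated at -0.55 to 0.72 (median -0.06). Those of VB and dLGN arrays with other numbers correlated at -0.77 to 0.77 (median 0.03). Deviations within groups of 2 to 4 arrays depend on one another, so these r cannot decide whether the numbers pair the samples. With the number pair as a fixed replicate block, 5 members in place of 3 were called between the nuclei in embBE mice at P4 (Calb1 and Hpcal1 in addition), 1 in place of 2 in control mice at P4 (Necab2 lost, adjusted p = 0.333) and 2 in place of 1 in control mice at P0 (Necab1 in addition). The first number as a block and no block at all left every count within 1.5 times the main one. With 2 to 4 arrays a group, no detection calls and signals after 2 rounds of amplification, small changes in weak probe sets such as that of Pvalb could not be resolved.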
